A study of Homo sapiens with 12 samples.

Results

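The genes described here are the nuclear-encoded genes of oxidative phosphorylation, found by their symbols: the NDUFA, NDUFB, NDUFC, NDUFS and NDUFV genes of complex I, SDHA to SDHD of complex II, the UQCR genes of complex III, the COX4 to COX8 genes of complex IV and the ATP5 genes of complex V. The arrays held 112 probes with such a symbol, for 83 genes. A member had to have a probe detected above background (detection p-value below 0.05) on 3 or more of the 12 arrays, and 77 genes met this, out of 13514 genes tested in all. They were 34 of 35 genes of complex I, 3 of 3 of complex II, 9 of 9 of complex III, 12 of 17 of complex IV and 19 of 19 of complex V. NDUFS6 and the tissue-restricted isoform genes COX4I2, COX6A2, COX6B2, COX7A1 and COX8C did not pass, and SDHB and NDUFA4 had no named probe. The rule also took in UQCRBP1 and ATP5F1EP2, annotated pseudogenes, and UQCRHL, a retrocopy of UQCRH, whose probes may share sequence with UQCRB, ATP5F1E and UQCRH.

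Complexes I to IV pass electrons from NADH and succinate to oxygen. Complexes I, III and IV move protons out of the mitochondrial matrix, and complex V, the ATP synthase, makes ATP as the protons flow back. Most subunits are encoded in the nucleus, made in the cytosol and imported, while a few central ones are encoded in mitochondrial DNA. Lung cancer cells with an activated EGFR rely strongly on glycolysis, and EGFR inhibition is known to lower it.

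The cells were PC9, a human lung adenocarcinoma line that carries an activated EGFR, and gefitinib is an inhibitor of that kinase. Their RNA was hybridised to 12 Illumina bead arrays of 1 colour, in 4 groups of 3: co-culture with MRC-5 lung fibroblasts and 0.5 µM gefitinib, gefitinib at 0.5 µM in PC9 alone, co-culture with no gefitinib label, and PC9 alone with DMSO. The shared protocol text gives co-culture for 48 h across inserts with 1 µm pores, in EMEM with 10% FCS, and gefitinib after 24 h followed by PBS washes. Whether the co-cultures without gefitinib received DMSO, and in which medium the monocultures stood, is something the labels leave out. All 6 co-culture titles, and none of the monoculture titles, carry an unexplained suffix, so co-culture, medium and any handling behind the suffix cannot be told apart. The labels do not say that replicates came from separate cultures, so the p-values measure the spread between these samples, which may be technical.

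Each array had 20917 to 22820 detected probes, and arrays of 1 group correlated at 0.9886 to 0.9909 across genes. All 8 epithelial markers were detected on all 12 arrays. Of 18 fibroblast markers, 9 passed the filter, and COL3A1, THY1, PDGFRB and LUM were detected on 0 arrays. COL1A1, COL5A1, LOX, SPARC and S100A4 were detected on all 12, monocultures included, and TWIST1 on 11. COL1A2 was detected on 4, with 1 in each group. COL6A3 was detected on 3, of which 1 was a co-culture without gefitinib and 2 were co-cultures with it. The 4 probes of DCN were detected on at most 3 arrays each, between them in both monoculture groups and in co-culture with gefitinib. FN1, PDGFRA, FAP, POSTN and FBN1 were detected on 1 or 2 arrays at any probe. Values below are log2 signals after background correction and quantile normalization, and a change is a difference of group means with the SE of the limma fit over all arrays. A gene was called at a Benjamini-Hochberg adjusted p under 0.05 over all genes. One probe's level cannot be set against another's, and in bulk RNA fewer cells of a type and less RNA per cell cannot be told apart.

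Promoters of this gene family are known for sites of the factors NRF1, ETS-family GABP and YY1. Of the 77 genes, 63 had a promoter in the RefSeq table used (GRCh38.p14, 250 bases before to 50 after the first listed start). Exact matches on either strand were sought for GCGCANGCG (part of the NRF1 consensus), CCGGAAG (ETS) and AAGATGGC (YY1). NRF1 letters stood in 30.2% of the 63 promoters and in 8.0% of 27305 promoters of all genes. ETS letters stood in 30.2% and 10.7% of those sets, and YY1 letters in 15.9% and 3.0%. No match of 1 motif overlapped a match of another in these genes. The 8 stretches printed here are from the genes called with gefitinib in monoculture that held a whole match within 100 bases before the start, and they put letters to genes whose values follow. Each is given 5′ to 3′ along the gene's strand with the match in capitals. NRF1 letters are marked in NDUFA11, NDUFA3, ATP5MC2 and ATP5MJ, and ETS letters in NDUFA13, COX5B, COX6A1 and COX6B1.
NDUFA13 (chr19:19516125-19516224, plus strand): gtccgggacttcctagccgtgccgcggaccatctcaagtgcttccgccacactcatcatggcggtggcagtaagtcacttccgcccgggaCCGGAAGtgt
NDUFA3 (chr19:54102755-54102854, plus strand): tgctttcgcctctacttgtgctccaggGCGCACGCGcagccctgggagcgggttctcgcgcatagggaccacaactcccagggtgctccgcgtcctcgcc
NDUFA11 (chr19:5903791-5903890, minus strand): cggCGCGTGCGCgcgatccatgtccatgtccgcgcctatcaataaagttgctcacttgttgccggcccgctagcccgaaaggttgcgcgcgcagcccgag
COX5B (chr2:97645962-97646061, plus strand): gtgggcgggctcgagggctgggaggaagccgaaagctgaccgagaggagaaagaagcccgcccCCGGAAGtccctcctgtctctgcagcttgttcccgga
COX6A1 (chr12:120438013-120438112, plus strand): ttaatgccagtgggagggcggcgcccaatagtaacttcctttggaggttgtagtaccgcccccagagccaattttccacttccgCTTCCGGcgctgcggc
COX6B1 (chr19:35648223-35648322, plus strand): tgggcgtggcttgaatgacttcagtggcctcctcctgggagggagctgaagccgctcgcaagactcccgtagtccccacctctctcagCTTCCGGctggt
ATP5MC2 (chr12:53676084-53676183, minus strand): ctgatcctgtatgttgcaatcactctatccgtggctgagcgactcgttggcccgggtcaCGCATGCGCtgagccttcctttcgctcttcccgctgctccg
ATP5MJ (chr14:103921530-103921629, minus strand): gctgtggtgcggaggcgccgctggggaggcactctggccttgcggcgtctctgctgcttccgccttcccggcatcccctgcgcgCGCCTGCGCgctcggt
Over the whole 300-base windows, any of the 3 motifs was present in 7 of 13 promoters of genes called higher with gefitinib in monoculture, in 3 of 6 of those called lower and in 27 of 44 of those not called. A match is a run of letters, not a measured binding site.

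The first comparison asked how the oxidative phosphorylation genes of PC9 cells grown alone differed with gefitinib. Most members were not called, and those that were went both ways in complexes I and V. The c-subunit genes ATP5MC3 and ATP5MC1, the complex III gene UQCR10 and the complex I genes NDUFA6 and NDUFC1 fell, to between 0.592 and 0.769 times the DMSO level. NDUFA13 of complex I rose 1.53-fold, and 6 small subunits of complex IV were called higher by 1.22-fold to 1.34-fold. In all, 15 members were called higher and 7 lower, or 28.6% of 77, where 40.8% of all genes tested were called (21.1% higher and 19.7% lower). NDUFB1 is among the 15 but passed the detection filter only through the gefitinib groups, and without it 14 of 76 were called higher and 7 lower. The members' median change was 0.03 against 0.0028 for all genes, and their median absolute change was 0.1966 against 0.3156. Of the 22 called members, 4 passed a 1.5-fold change, where 3289 of the 5511 called genes did. Groups of arrays did not overlap for 22 members higher and 17 lower with gefitinib (28.6% and 22.1%), where this held for 25.7% and 24.3% of all genes.

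The balance of higher and lower calls depended on how the arrays were scaled to each other. Scaling each array to the median of all its probes, in place of quantile normalization, gave 2 members called higher and 20 lower, and shifted the median change over all genes to -0.12. Scaling to the median of the probes detected on all arrays, an alternative added after seeing the data, gave 11 higher and 15 lower. The authors' normalized values gave 23 higher and 10 lower. The genes past the threshold in the same direction under all 21 alternatives to the settings used numbered 6, namely the falls of ATP5MC3, ATP5MC1, UQCR10, NDUFA6 and NDUFC1 and the rise of NDUFA13.

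**Figure D1:**
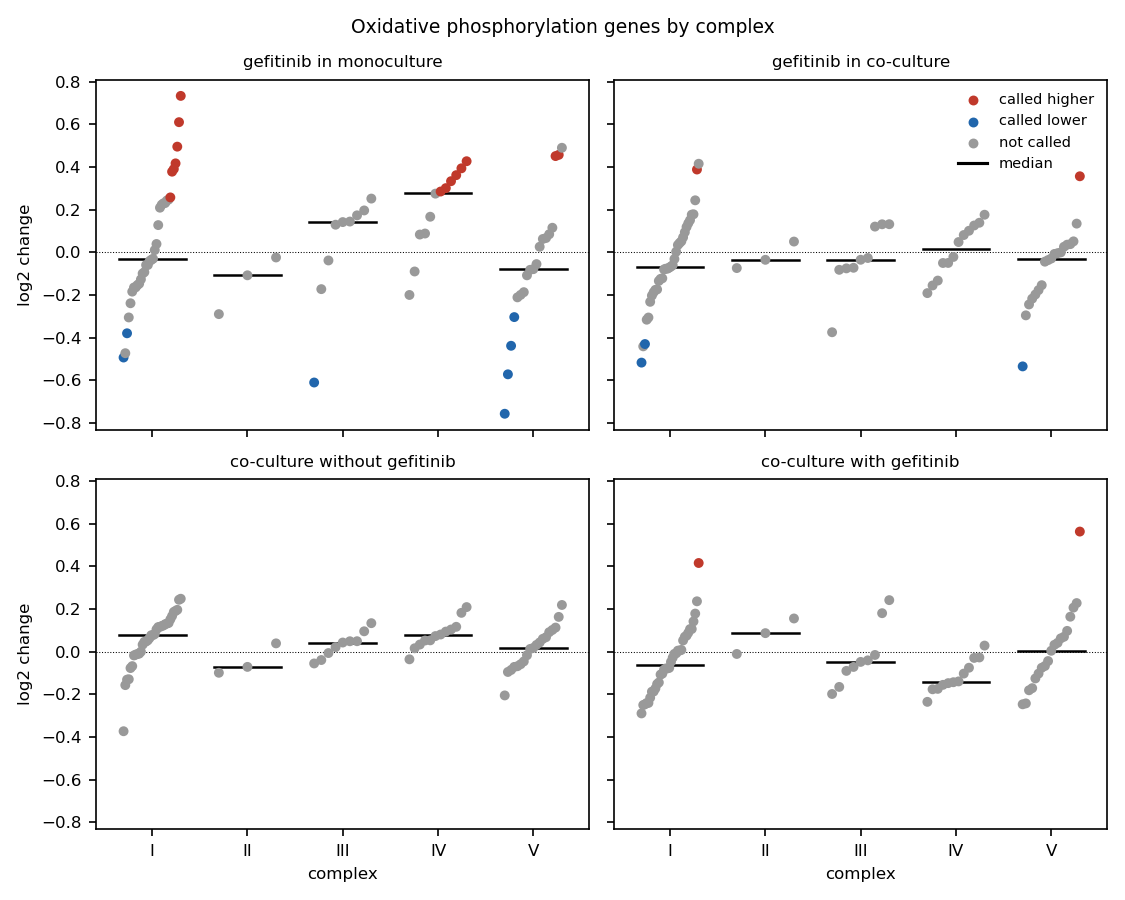
Log2 change (vertical axis) of each of the 77 genes by complex (horizontal axis) in 4 comparisons, 1 point per gene, with the median of each complex as a bar. With gefitinib in monoculture the complex I and V genes spread to both sides of 0 and the complex IV median is 0.28, while with co-culture and no gefitinib no gene is called.

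**Figure D2:**
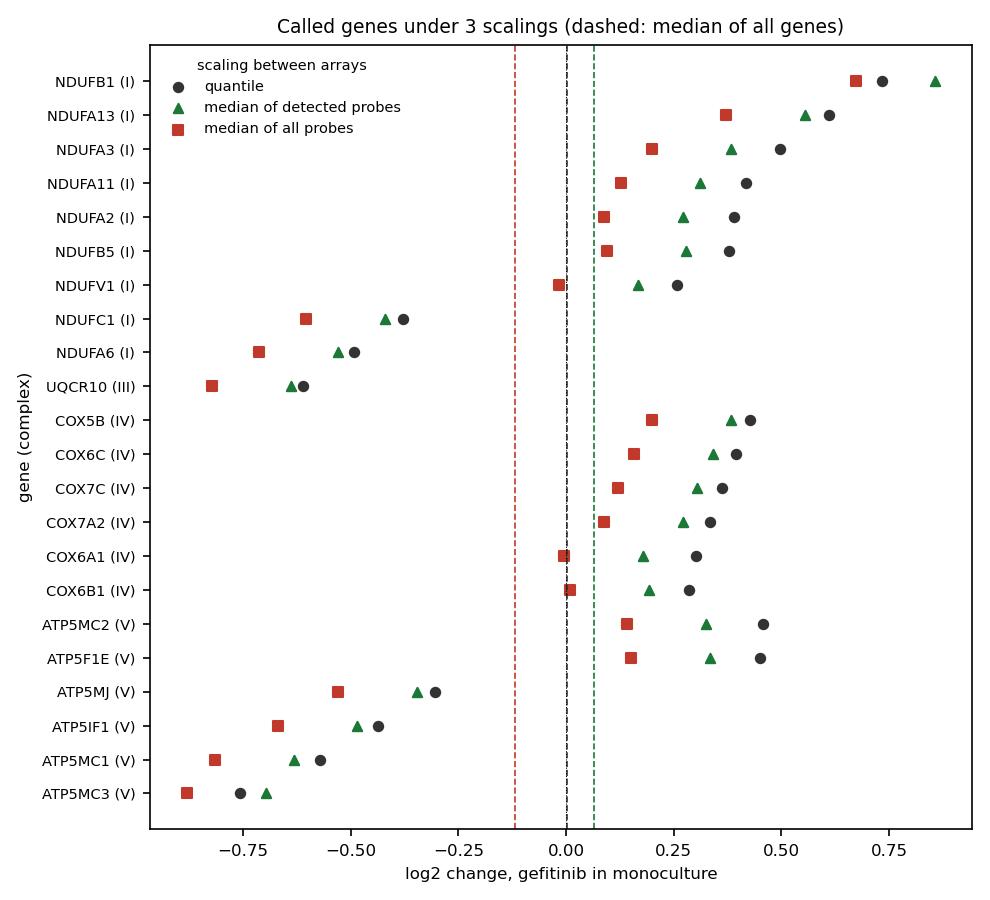
Log2 change with gefitinib in monoculture (horizontal axis) of the 22 called genes (vertical axis) under quantile normalization and 2 median scalings, with the median of all genes in each scaling as a dashed line. The 7 falls lie below 0 in all 3 scalings, while 13 of the 15 rises lie within 0.2 of 0 under scaling to the median of all probes, the exceptions being NDUFB1 and NDUFA13.

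Complex I takes electrons from NADH and is the largest of the 5. Of its 34 members, 7 were called higher and 2 lower with gefitinib in monoculture, with a median change of -0.03. NDUFA6, an accessory subunit of the LYR family, had log2 signals of 8.91, 8.88 and 8.82 with gefitinib, against 9.47, 9.25 and 9.37 with DMSO. The groups did not overlap, and the change was -0.49 ± 0.12 (SE, n = 3 arrays per group; limma adjusted p = 0.00472). NDUFC1, a membrane-arm accessory subunit, had 9.17, 9.10 and 9.19 with gefitinib, against 9.46, 9.63 and 9.50 with DMSO, a change of -0.38 ± 0.08 (limma adjusted p = 0.00315). All 3 gefitinib arrays lay below all 3 DMSO arrays for both genes.

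NDUFA13, also known as GRIM-19, had 10.50, 10.44 and 10.37 with gefitinib, against 9.50, 10.10 and 9.88 with DMSO. Its groups did not overlap, 1 DMSO array lay well below the other 2, and the change was 0.61 ± 0.13 (limma adjusted p = 0.00316). NDUFA3, a membrane-arm accessory subunit, had 11.86, 11.74 and 11.83 with gefitinib, against 11.28, 11.31 and 11.35 with DMSO, a change of 0.50 ± 0.08 (limma adjusted p = 0.000331). Under scaling to the median of all probes its change was 0.20 (adjusted p = 0.252), while the call held under the other 20 alternatives. NDUFB1, an accessory subunit of the membrane arm, was not above background on any DMSO array and was on all 3 gefitinib arrays. Its measured means were 5.27 with gefitinib and 4.54 with DMSO, a change of 0.73 ± 0.23 (limma adjusted p = 0.0216). With the authors' values the change was 0.32, so its size near background is uncertain. The call was lost without DMSO array 1 or gefitinib array 1 or 3. NDUFB1 was detected on 5 of 12 arrays, all of them with gefitinib. Without these it would not have passed the filter, so it had to differ and its call is a description only.

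The other complex I calls were NDUFA11 (0.42), NDUFA2 (0.39), NDUFB5 (0.38) and the core flavoprotein NDUFV1 (0.26), and all 4 were lost under scaling to the median of all probes, where NDUFV1 was at -0.02 (adjusted p = 0.935). The NDUFV1 call was also lost with scaling on detected probes, with no detection filter, with the replicate block, in a fit of just these 2 groups, without any 1 DMSO array and without gefitinib array 1 or 3. NDUFA11, NDUFA2 and NDUFB5 stand outside the naming rule and are given because they complete the count. Core subunits carry the flavin, the iron-sulfur clusters and the quinone site, and the others described here were not called: NDUFV2 changed by -0.06, NDUFS1 by -0.04, NDUFS3 by -0.10, NDUFS8 by -0.04 and NDUFS7 by -0.24. NDUFS1 was close to background, with 9 of 12 arrays above it, and the 95% interval of its change ran from -0.93 to 0.86. The interval of NDUFS8, detected on every array, ran from -0.28 to 0.20.

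**Figure D3:**
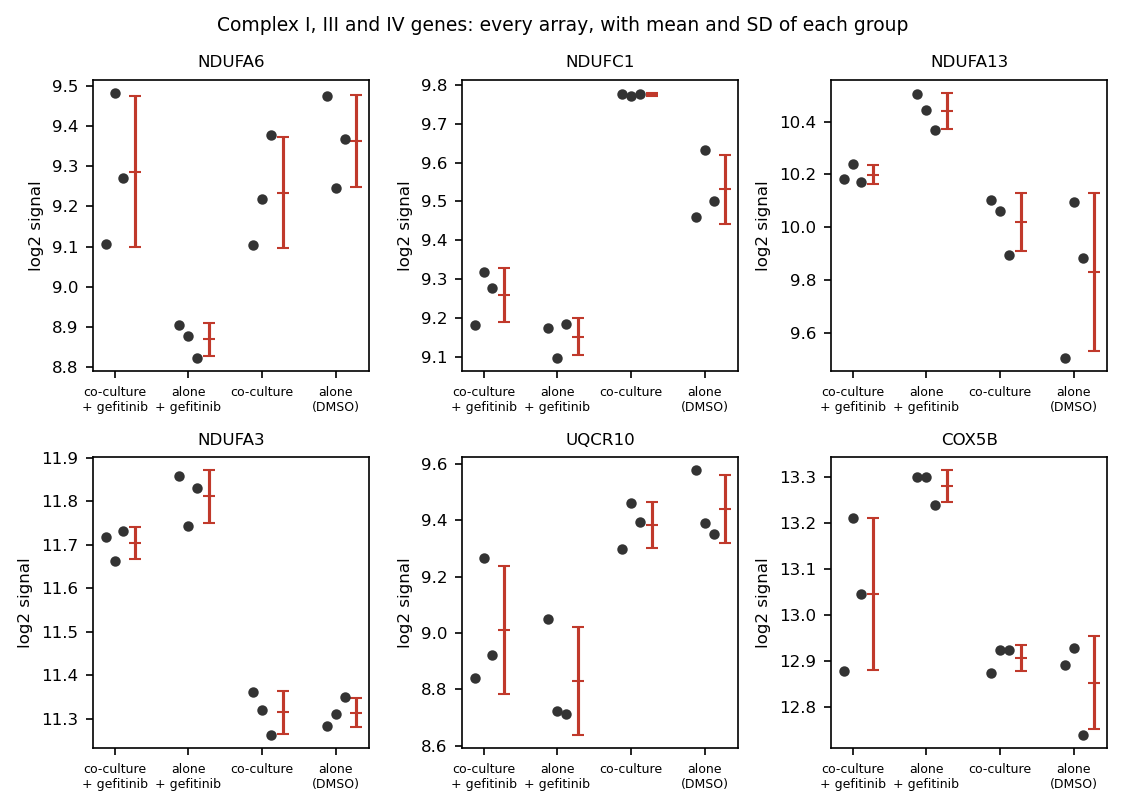
Log2 signal (vertical axis, own scale for each gene) of NDUFA6, NDUFC1, NDUFA13, NDUFA3, UQCR10 and COX5B on each array by group (horizontal axis), black points, with the group mean and SD (n = 3) in red. NDUFC1 is lower and NDUFA3 higher in both gefitinib groups than in their groups without it, while NDUFA6 is low in the gefitinib monocultures and overlaps between both co-culture groups.

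Complex II, succinate dehydrogenase, also works in the TCA cycle, and none of its 3 members was called by limma. At an unadjusted p under 0.05 there was 1, SDHD, a membrane anchor, with 9.27, 9.26 and 9.20 with gefitinib, against 9.65, 9.54 and 9.41 with DMSO. These groups did not overlap, and the change was -0.29 ± 0.11 (limma adjusted p = 0.0527). SDHA, the flavoprotein, changed by -0.02 ± 0.11 (95% interval -0.26 to 0.21). SDHC, the other anchor, changed by -0.11 ± 0.12 at its brightest probe, while its second probe changed by 0.29 in a fit of all 25510 passing probes (limma adjusted p = 0.0375), so its probes disagreed.

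Complex III hands electrons on to cytochrome c. Of its 9 members, 1 was called, UQCR10, a small subunit, at 9.05, 8.72 and 8.71 with gefitinib, against 9.58, 9.39 and 9.35 with DMSO. The groups did not overlap, and the change was -0.61 ± 0.13 (limma adjusted p = 0.00324). Its second probe changed by -0.36 (adjusted p = 0.0385 in the fit of all probes), whereas another changed by -0.02. The median of the 9 was 0.14, and the other 8 lay between -0.17 and 0.25. CYC1, the cytochrome c1 heme subunit of the same complex, whose symbol lies outside the rule, changed by -0.58 ± 0.09 (limma adjusted p = 0.000401).

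Complex IV, cytochrome c oxidase, passes the electrons to oxygen. Of its 12 members, 6 were called higher and 0 lower with gefitinib in monoculture by limma (7 higher and 0 lower at an unadjusted p under 0.05), with a median change of 0.28. Of all genes, 24.7% were higher and 23.2% lower at that unadjusted p. COX5B, a matrix-side subunit, had 13.30, 13.30 and 13.24 with gefitinib, against 12.89, 12.93 and 12.74 with DMSO. The gefitinib arrays lay above the DMSO arrays without overlap, by 0.43 ± 0.10 (limma adjusted p = 0.00451). COX6C, a membrane subunit, had 12.97, 13.24 and 12.99 with gefitinib, against 12.73, 12.70 and 12.60 with DMSO, a change of 0.39 ± 0.10 (limma adjusted p = 0.00757). COX7C, another membrane subunit, had 13.65, 13.72 and 13.77 with gefitinib, against 13.48, 13.20 and 13.37 with DMSO, a change of 0.36 ± 0.10 (limma adjusted p = 0.0123). The groups of both genes did not overlap either. COX7A2 (0.33), COX6A1 (0.30) and COX6B1 (0.29) completed the calls, and the next in size was COX7B at 0.28 (limma adjusted p = 0.0561). Single arrays decided some of these calls: COX7C lost it without DMSO array 2, COX6A1 without DMSO array 2 or gefitinib array 1 or 3, COX6B1 without DMSO array 3 or gefitinib array 3, and COX7A2 without DMSO array 2 or 3 or gefitinib array 2 or 3.

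These complex IV rises hinged on the scaling. With each array scaled to the median of all its probes, 0 of the 12 were called higher and 1 lower by limma, their median was -0.0038, and COX6A1 turned to -0.0048 (adjusted p = 0.986). With scaling on detected probes 3 were called higher and 1 lower, with a median of 0.18, and with the authors' values 7 and 0, with a median of 0.27. Under each of these the median of the complex IV genes lay above that of all genes, which was -0.12 with scaling on all probes, 0.06 with scaling on detected probes and 0.0077 with the authors' values. These sets differ in signal, with medians of 12.67 for complex IV and 7.15 for all genes on DMSO array 1. Changes at like signal were not compared. Of the members not called, COX5A, a matrix-side subunit, changed by -0.09, COX7A2L by 0.09, COX4I1 by 0.17, COX7B2 by 0.08 and COX8A by -0.20.

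Complex V is the ATP synthase, with a catalytic F1 head and a membrane ring of c subunits. Of its 19 members, 2 were called higher and 4 lower, with a median of -0.08. The c subunit is encoded by 3 genes, ATP5MC1, ATP5MC2 and ATP5MC3, which give the same mature protein from precursors with different import sequences. ATP5MC3 had 6.66, 6.50 and 6.47 with gefitinib, against 7.36, 7.18 and 7.35 with DMSO, a change of -0.76 ± 0.10 (0.592-fold; limma adjusted p = 0.000106). ATP5MC1 had 9.65, 9.96 and 10.03 with gefitinib, against 10.39, 10.53 and 10.44 with DMSO, a change of -0.57 ± 0.11 (0.673-fold; limma adjusted p = 0.00116), and its second probe changed by -1.06. Neither gene's groups overlapped.

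ATP5MC2 went the other way, with 12.19, 12.23 and 12.01 with gefitinib, against 11.81, 11.62 and 11.62 with DMSO, a change of 0.46 ± 0.10 (1.37-fold; limma adjusted p = 0.00289). Its second, dimmer probe changed by 0.36 and was not called (limma adjusted p = 0.211 in the fit of all probes). The rise at the brightest probe held under 20 of 21 alternatives and was 0.14 (adjusted p = 0.513) under scaling to the median of all probes. ATP5F1E, the small epsilon subunit of the central stalk, had 11.72, 11.62 and 11.70 with gefitinib, against 11.30, 11.30 and 11.10 with DMSO, a change of 0.45 ± 0.09 (limma adjusted p = 0.00133), and it too was lost under that scaling. Both probes of the pseudogene ATP5F1EP2, which may share sequence with ATP5F1E, were brighter and changed by 0.09 and 0.07. Neither was called in the fit of all probes (limma adjusted p = 0.558 and 0.653). The transcripts of ATP5F1A and ATP5F1B, the large F1 subunits, changed by -0.21 ± 0.10 and -0.08 ± 0.08, neither called.

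ATP5IF1, the inhibitor that blocks the enzyme from running backwards, had 9.63, 9.48 and 9.58 with gefitinib, against 9.93, 10.13 and 9.96 with DMSO. The groups did not overlap and the change was -0.44 ± 0.09 (limma adjusted p = 0.00239), but its second, dimmer probe changed by -0.04 and the call was lost with the mean of both (adjusted p = 0.0611). ATP5MJ, a small membrane subunit outside the naming rule, was called lower at -0.30, and lost the call when DMSO array 1 or 3 or gefitinib array 1 or 2 was left out. ATP5MK, a small membrane subunit above background on 11 of 12 arrays, changed by 0.49 without being called.

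**Figure D4:**
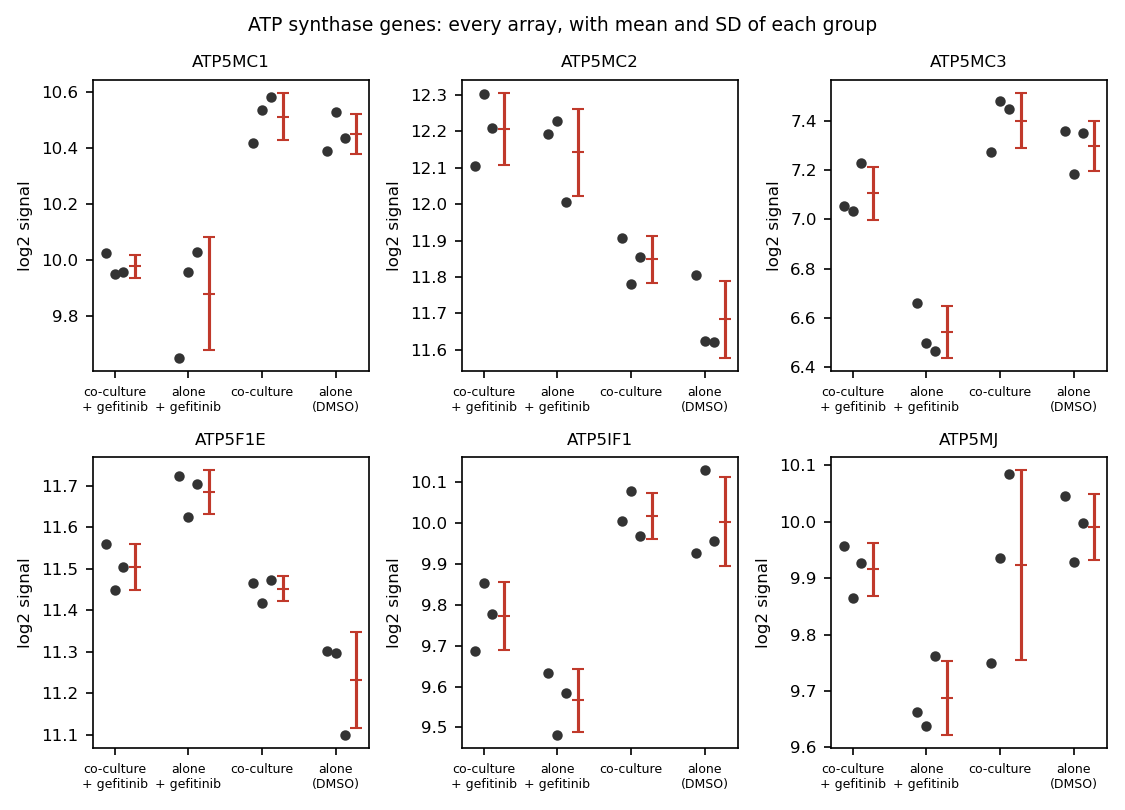
Log2 signal (vertical axis, own scale for each gene) of 6 ATP synthase genes on each array by group (horizontal axis), black points, with the group mean and SD (n = 3) in red. ATP5MC1 is lower and ATP5MC2 higher in both gefitinib groups than in the groups without gefitinib, and ATP5MC3 is lowest with gefitinib in monoculture.

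The second comparison set co-culture with gefitinib against co-culture without it. Fewer members were called: 2 higher and 3 lower, or 6.49% of 77, where 20.1% of all genes were called (10.9% higher and 9.17% lower). None of the 5 reached a 1.5-fold change, where 1411 of the 2710 called genes did. The members' median change was -0.03 against -0.0111 for all genes. Groups did not overlap for 8 members higher and 15 lower (10.4% and 19.5%), where this held for 18.4% and 18.9% of all genes. ATP5MC1 had 10.03, 9.95 and 9.96 with gefitinib, against 10.42, 10.54 and 10.58 without, a change of -0.53 ± 0.11 (limma adjusted p = 0.00434). NDUFC1 had 9.18, 9.32 and 9.28 with gefitinib, against 9.78, 9.77 and 9.78 without, a change of -0.52 ± 0.08 (limma adjusted p = 0.00104). The third fall was in NDUFS7, a core subunit that holds an iron-sulfur cluster near the quinone site, with 9.39, 9.46 and 9.41 with gefitinib, against 9.94, 9.67 and 9.94 without, a change of -0.43 ± 0.10 (limma adjusted p = 0.00781). No gefitinib array overlapped the arrays without gefitinib for these genes, but all 3 calls were lost under scaling to the median of all probes, which put the all-gene median at 0.13 and left 0 members called lower by limma.

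NDUFA3 rose in co-culture, with 11.72, 11.66 and 11.73 with gefitinib, against 11.36, 11.32 and 11.26 without, a change of 0.39 ± 0.08 (limma adjusted p = 0.00435) that held under all 21 alternatives. ATP5MC2 had 12.10, 12.30 and 12.21 with gefitinib, against 11.91, 11.78 and 11.86 without, a change of 0.36 ± 0.10 (limma adjusted p = 0.0242). Its call was lost under scaling on detected probes and without any 1 of co-culture arrays 2 and 3 of either group. In complex IV limma called 0 of 12 members, and the median change was 0.01. At an unadjusted p under 0.05 there were 0, where 31.8% of all genes were. COX5B had 12.88, 13.21 and 13.05 with gefitinib, against 12.87, 12.92 and 12.92 without, and these groups overlapped (0.14 ± 0.10).

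The monoculture and co-culture effects of gefitinib share no arrays. Across the 77 genes they correlated at a Pearson r of 0.719 and a Spearman rho of 0.693, with the same sign in 59 genes. Across the 13514 genes tested r was 0.789 and rho 0.678, with the same sign in 9905, so the members stood near the general relation. Genes are not independent replicates, and no p is given. Of the 22 members called in monoculture, 20 had the same sign in co-culture, 21 had a smaller change there and 4 were called in the same direction (NDUFA3, ATP5MC2, ATP5MC1 and NDUFC1); being called in monoculture favours larger values there. NDUFC1 was the 1 with a larger change in co-culture. These counts of called members were not made for the other called genes.

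The test of the difference between both effects called 0 members by limma, where 7.27% of all genes were called (3.94% higher and 3.34% lower). At an unadjusted p under 0.05 there were 8 members (10.4%), of which 6 were negative (7.79%) and 2 positive (2.6%). Of all genes, 22.6% were under that p, 11.7% negative and 10.9% positive. The members' median difference, co-culture minus monoculture, was -0.09 against -0.0137 for all genes. The 2 positive ones were NDUFA6 (0.55 ± 0.16, limma adjusted p = 0.0685) and ATP5MC3 (0.46 ± 0.14, limma adjusted p = 0.0803). The lowest p among the negative ones was that of ATP5F1E (-0.40 ± 0.12, limma adjusted p = 0.0738), which stood 0.45 higher with gefitinib in monoculture and 0.05 higher in co-culture. The probes of its pseudogene ATP5F1EP2 differed by -0.06 and -0.02 in the fit of all probes, neither called.

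The third comparison asked what co-culture did to PC9 cells without gefitinib. No member was called by limma, where 0.355% of all genes were, and 4 members (5.19%) had an unadjusted p under 0.05, where 11.8% of all genes did. All 4 had higher values in co-culture: NDUFA2 (0.25), NDUFC1 (0.24), ATP5F1E (0.22) and NDUFA11 (0.19). The members' changes lay between -0.37 and 0.25, with a median of 0.05 against 0.0028 for all genes. Groups did not overlap for 12 members that were higher and 2 that were lower in co-culture, or 15.6% and 2.6% of 77, where 9.28% and 8.23% of all genes did so. The summed signal of the 9 fibroblast markers that passed was 7362.8 to 7559.9 in co-culture, against 5241 to 6698 in PC9 alone. A sum weighs the brightest markers most. The median log2 change of the 9 was 0.09, with 6 higher, 3 lower and 0 called by limma. The part of fibroblast RNA in the members' values was not tested.

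The fourth comparison set co-culture with gefitinib against gefitinib alone. Here 2 members were called higher and 0 lower by limma, or 2.6% of 77. Of all genes, 13.5% were called (7.1% higher and 6.36% lower). At an unadjusted p under 0.05 there were 5 members higher and 5 lower (6.49% each), where 13.2% and 13.7% of all genes were. ATP5MC3 had 7.05, 7.03 and 7.23 in co-culture with gefitinib, against 6.66, 6.50 and 6.47 with gefitinib alone, a change of 0.56 ± 0.10 (limma adjusted p = 0.00451) that held under all 21 alternatives. NDUFA6 had 9.11, 9.48 and 9.27 in co-culture with gefitinib, against 8.91, 8.88 and 8.82 alone, a change of 0.42 ± 0.12 (limma adjusted p = 0.0342), and its call was lost without gefitinib co-culture array 2 or 3, without any 1 gefitinib monoculture array, with the replicate block and in a fit of just these 2 groups. Groups did not overlap for 6 members higher and 17 lower (7.79% and 22.1%), where this held for 15.3% and 16.5% of all genes. Both genes had been lower with gefitinib in monoculture, and that comparison shares the gefitinib monoculture arrays with this one. Complex IV genes had a median of -0.14 in this comparison, with 0 of 12 called by limma and 1 below an unadjusted p of 0.05. The fibroblast markers summed to 4990.2 to 6042.2 in co-culture with gefitinib, against 5010.8 to 6504.1 with gefitinib alone.

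The genes that build and supply these complexes were counted in the same way, beside the 40.8% of all genes called with gefitinib in monoculture. These lists were chosen with earlier results of these data known, so their counts are descriptions. Of 55 genes of the mitochondrial ribosome, which makes the mitochondrially encoded subunits, 31 were called lower and 0 higher by limma with gefitinib in monoculture (35 lower and 0 higher at an unadjusted p under 0.05), or 56.4%, with a median of -0.30. The largest falls were in MRPL35 (-0.94 ± 0.09), MRPL19 (-0.81 ± 0.11) and MRPL15 (-0.70 ± 0.11). Of 17 regulators of mitochondrial transcription and biogenesis, 6 (35.3%) were called lower and 0 higher by limma (9 lower and 0 higher at an unadjusted p under 0.05). TFAM, which packages mitochondrial DNA and helps to start its transcription, changed by -1.16 ± 0.12. The coactivator PPRC1 changed by -0.87 ± 0.10 and GABPB1, a subunit of the ETS-family factor GABP, by -0.71 ± 0.15. The adjusted p of the genes named with values here (MRPL35, MRPL19, MRPL15, TFAM, PPRC1 and GABPB1) ran up to 0.00231.

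Assembly factors of complex I, 14 in number, gave 2 called higher and 6 lower (57.1% in all), with NDUFAF2 at -1.18 ± 0.10, NDUFAF8 at -0.81 ± 0.14 and NDUFAF4 at -0.77 ± 0.13, against NUBPL at 0.48 ± 0.12 and NDUFAF3 at 0.32 ± 0.09. Of 34 assembly factors of complexes II to V, 6 were called higher and 10 lower (47.1%). COA7, a complex IV assembly factor, changed by -1.20 ± 0.13, SDHAF3, of complex II, by -0.89 ± 0.13 and COX20, a chaperone of COX2, by -0.83 ± 0.11, whereas the complex IV assembly factors PET100, SURF1 and COX14 rose by 0.75 ± 0.10, 0.69 ± 0.10 and 0.48 ± 0.11. Of 16 TCA cycle genes, 2 were called higher and 8 lower (62.5%), among them IDH3A (-0.79 ± 0.15), DLST (-0.66 ± 0.14) and SUCLG1 (-0.61 ± 0.11), with IDH2 (0.66 ± 0.14) and OGDH (0.53 ± 0.09) higher. The 5 genes of pyruvate dehydrogenase kinases and phosphatases had 0 calls by limma, with 2 at an unadjusted p under 0.05. The uncoupling protein gene UCP2 was higher by 1.24 ± 0.17. Of these rises, PET100, SURF1, IDH2 and UCP2 held under all 21 alternatives. Scaling to the median of all probes ended the calls of NUBPL, COX14, NDUFAF3 and OGDH, and the mean of probes also ended those of NDUFAF3 and OGDH, which was as low as 0.0077 (adjusted p = 0.969). The 13 mitochondrially encoded subunits had 0 named probes and were not analysed here.

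With gefitinib in co-culture, 9 of 55 mitochondrial ribosome genes were called lower and 0 higher by limma (16.4%), beside the 20.1% of all genes called. Likewise lower were 3 of 17 regulators (17.6%), 5 of 14 complex I assembly factors (35.7%) and 2 of 16 TCA cycle genes (12.5%). Of the 34 assembly factors of complexes II to V, 1 was called higher and 4 lower (14.7%). In monoculture the numbers called lower under the 3 other scalings were 32 to 38 for the ribosome and 8 to 11 for the regulators, with 1 ribosome gene called higher under the authors' values. In co-culture 0 ribosome genes and 0 regulators were called lower by limma under scaling to the median of all probes, while the authors' values gave 15 and 2.

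**Figure D5:**
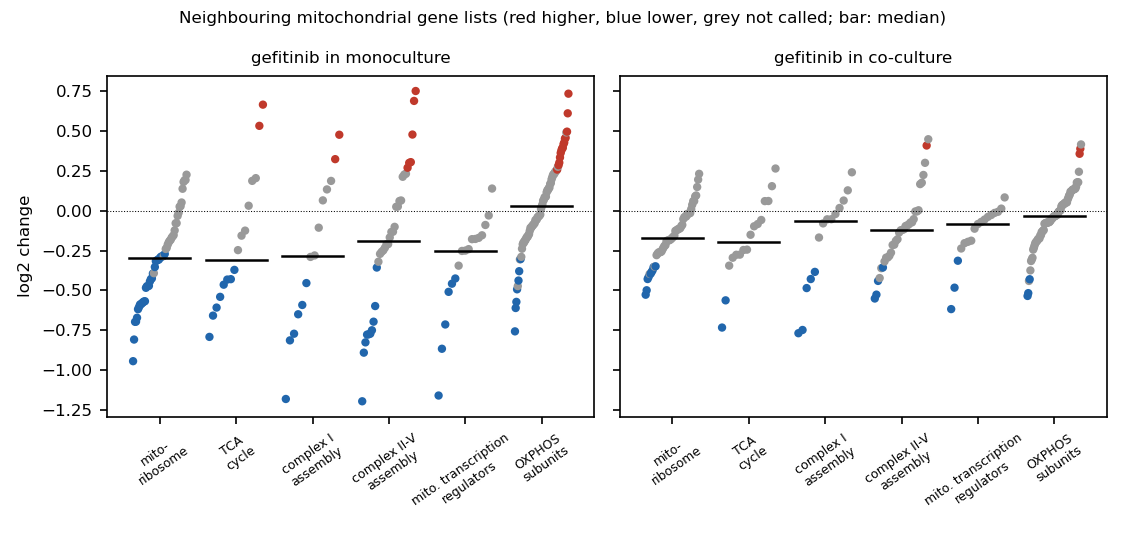
Log2 change (vertical axis) of each gene of 5 neighbouring mitochondrial lists and of the 77 oxidative phosphorylation genes (horizontal axis) with gefitinib in monoculture (left) and in co-culture (right), red for called higher, blue for called lower, grey for not called, with the median of each list as a bar. In monoculture the median of the mitochondrial ribosome is -0.30 and that of the oxidative phosphorylation genes 0.03.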

How the data were processed

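From Illumina bead arrays of 1 colour the authors deposited an unnormalized signal intensity and a detection p-value per probe and array, per the file headers. A second deposited table holds the authors' normalized intensity values on a linear scale, made by a method the labels do not name. The intensities were background-corrected, quantile-normalized and log2-transformed with an offset of 16 (neqc, limma 3.58.1, R 4.3.3), which understates changes of dim probes. The brightest passing probe stood for each gene. The limma fit of 4 group means took in 12 arrays and 13514 genes and was two-sided, with Benjamini-Hochberg adjustment at 0.05, and the fit was tested on simulated data. The 3 arrays per group limit the precision. Genes were named by a rule: per comparison and complex the 3 largest rises and falls past the threshold with non-overlapping groups, calls against the majority of their complex, genes called in the difference between both effects, the SDH and core complex I genes, and isoform groups. The members and lists were chosen with earlier results of these data known. Same-numbered replicates did not deviate together (correlations -0.019 to 0.039), so the main fit has no block. The alternatives were no background correction, 2 median scalings, the authors' values, no filter on dim probes, a stricter filter (3 arrays of 1 group below 0.01 in detection p), averaged probes, a replicate block, only the compared groups, a fit of all probes, members without the 3 near-copies or NDUFB1, and leaving out each array.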

Additional observations from a re-analysis of the deposited data

Results flagged for a closer look

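No oxidative phosphorylation gene met the test of a difference between both gefitinib effects. Of 151 neighbouring genes 11 did, or 7.28%, beside 7.27% of all genes (limma adjusted p under 0.05; log2, co-culture minus monoculture). Among assembly factors, COA7 differed by 1.11 ± 0.18, NDUFAF4 by 0.72 ± 0.18, COX20 by 0.65 ± 0.16, UQCC3, of complex III, by 0.49 ± 0.13 and SURF1 by -0.51 ± 0.14. COA7 stood at -0.09 ± 0.13 in co-culture and -1.20 ± 0.13 in monoculture. Among regulators, PPRC1 differed by 0.88 ± 0.14 and TFAM by 0.68 ± 0.17. TFAM was called lower in both settings, at -0.48 ± 0.12 in co-culture and -1.16 ± 0.12 in monoculture. The mitochondrial ribosome genes MRPL15 and MRPL35 differed by 0.58 ± 0.15 and 0.52 ± 0.13, the TCA cycle gene OGDH by -0.47 ± 0.13 and the cytochrome c gene CYCS by 0.78 ± 0.20. Only the COA7 and PPRC1 calls held under all 20 alternatives run for this difference. Of those 20, the call was lost in 16 for OGDH, 14 each for MRPL35 and CYCS, 13 for SURF1, 12 each for MRPL15 and UQCC3, 11 for COX20 and 9 each for TFAM and NDUFAF4. The replicate block ended it for all of these except COX20. OGDH was as small as -0.06 and SURF1 as small as -0.11.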

How the results depend on the processing

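All counts here are of oxidative phosphorylation genes, and only those that moved by over 1.5 times are listed. With no background correction, 23 were called higher and 11 lower with gefitinib in monoculture, 8 lower with gefitinib in co-culture, 1 lower for co-culture with gefitinib, and 1 higher and 3 lower in the difference between both effects. With scaling to the median of all probes, the counts were 2 higher and 20 lower in monoculture, 0 lower for gefitinib in co-culture, 5 higher for co-culture with gefitinib and 3 higher in the difference, and COX6A1 (-0.0048) and NDUFV1 (-0.0172) changed sign in monoculture. That scaling put the median of all genes at -0.12, 0.13, 0.19 and 0.29 in these 4 comparisons. Scaling on detected probes gave 15 lower in monoculture, and 1 higher and 10 lower for gefitinib in co-culture. The authors' values gave 23 higher in monoculture, 7 lower for gefitinib in co-culture, 1 lower for co-culture with gefitinib, and 1 higher and 3 lower in the difference. Under these 3 scalings in turn, 36.9%, 41.8% and 43.7% of all genes were called with gefitinib in monoculture. For gefitinib in co-culture the shares of all genes were 17.2%, 21.8% and 24.1%. The strict filter gave 7 lower for gefitinib in co-culture, 1 lower for co-culture with gefitinib, and 1 higher and 1 lower in the difference, and the mean of probes gave 6 lower for gefitinib in co-culture. With only the compared groups, 1 was called higher for co-culture with gefitinib. The replicate block also gave 1 there and moved no other count by over 1.5 times; the numbers do not pair the samples. Leaving out 1 array at a time gave 11 to 15 higher and 6 to 9 lower in monoculture, 1 to 2 higher and 3 to 4 lower for gefitinib in co-culture, 0 for co-culture without gefitinib, 1 to 2 higher and 0 lower for co-culture with gefitinib, and 0 to 1 higher and 0 lower in the difference (1 without gefitinib co-culture array 1). Of the calls, 6 of 22 in monoculture, 1 of 5 for gefitinib in co-culture and 1 of 2 for co-culture with gefitinib were past the threshold under every alternative. In the fit of all probes, 15 of 102 member probes were called higher and 11 lower in monoculture, where 30.5% of all 25510 passing probes were called. The second probes of ATP5F1D (-0.45) and NDUFB6 (-0.31) were among those lower and that of SDHC (0.29) among those higher. The brightest probes of these genes were not called. None of the 3 near-copies was called, so leaving them out changed no count, and without NDUFB1 there were 14 higher in monoculture. A slide block was not run, because the headers give no slide. The causes of these shifts were not tested. Of 77 genes, 4 were not above background on every array.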
